A study of Homo sapiens with 16 samples.

Results

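The ABC drug efflux transporters described here are 9 genes, taken by symbol from the 26475 gene rows of an RNA-seq table: ABCB1, ABCB5, ABCC1, ABCC2, ABCC3, ABCC4, ABCC5, ABCC10 and ABCG2. All 9 were in the table, and all 9 were among the 16012 genes that passed the filter on low counts. The RNA came from A375 MA2-Luc, an established human melanoma line that was given by the retro-orbital route to NSG mice, which lack a working adaptive immune system, and was labelled as lung metastasis, although the series design mentions cells in culture as well. There were 4 groups of 4 libraries: the ketogenic diet with inhibitors, the same diet without them, the high fat diet with inhibitors, and that diet without them. The inhibitors were a BRAF kinase inhibitor and a MEK inhibitor delivered by oral gavage over 5 weeks, 3 times per week, with no compound or dose named. The labels speak of untreated controls without saying whether these received a vehicle, so the drugs and the gavage cannot be told apart. All 4 groups are the same line in the same host, and the labels do not say whether each library came from its own mouse, so the p-values below measure the spread between these libraries.

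ABC transporters are membrane proteins that use the energy of ATP to move molecules across a membrane, and the members described here sit largely at the cell surface and pump their substrates outward. The ABCB1 product, P-glycoprotein, and the ABCG2 product, the breast cancer resistance protein, carry a broad range of hydrophobic drugs, among them several BRAF inhibitors. The ABCC members are the multidrug resistance-associated proteins, which mainly carry organic anions such as glutathione, glucuronide and sulfate conjugates. ABCB5 has been studied in melanoma as a marker of drug-resistant subpopulations.

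Each library summed to between 37.1 and 77.3 M (mega) estimated counts. Ribosomal RNA genes took 4.10 to 8.37% of the counts in the ketogenic libraries with inhibitors and 15.2 to 33.7% in those without, and 15.01 to 19.97% in the high fat libraries with inhibitors and 21.7 to 50.01% in those without. The share therefore moves with the treatment and, among libraries with inhibitors, with the diet. Fits that take it into account are given for ABCC1, ABCC3 and ABCG2 on the high fat diet. They are also given for ABCC2 on the ketogenic diet and for ABCC10 between the diets without inhibitors. All 14 melanoma and melanocyte markers had counts in each group, with CSPG4, a surface proteoglycan of melanoma cells, the most abundant at a mean of 1626 CPM. The pigment cell markers MLANA and TYRP1 were near 0, and TYRP1 had no counts in 3 libraries. The pigment genes PMEL, TYR and DCT were low as well, with group means of at most 2.57, 2.56 and 3.45 CPM, and TYR had no counts in 1 library. Untreated high fat replicate 4 stood apart from its group: its melanoma markers summed to 5959 CPM, against 3446 to 4004 CPM in the other 3 libraries. Results that rest on it are given with and without it.

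Levels are given as CPM, each count as a share of a TMM-scaled library size of 1 M, and fold changes are edgeR log2 values of inhibitors over none, or of ketogenic over high fat diet, with their standard error (SE). A gene counts as risen or fallen where its adjusted p from edgeR's quasi-likelihood test over all tested genes is under 0.05. Intervals are 95% confidence intervals of the log2 fold change. In RNA from whole samples, fewer cells of a type and less RNA per cell cannot be told apart.

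The transporters were expressed at very different levels. Per kb of the longest annotated transcript, ABCC4 had a mean of 7.83 CPM over the 16 libraries, ABCC1 6.76 CPM, ABCC5 3.75 CPM and ABCC10 2.69 CPM. ABCC3 followed at 0.921 CPM per kb and ABCG2 at 0.210 CPM per kb. The lowest were ABCC2 at 0.152 CPM per kb, ABCB1 at 0.0649 CPM per kb and ABCB5 at 0.0486 CPM per kb. ABCC1, ABCC4, ABCC5 and ABCC10 together made up 83.6 to 97.4% of the summed level per kb of the 9 genes in each library. The order held in all 16 libraries for ABCC1 over ABCC5, ABCC5 over ABCC10, ABCC3 over ABCG2 and ABCC2 over ABCB1. Neighbours that were not separated in this way were ABCC4 over ABCC1 in 14 libraries, ABCC10 over ABCC3 in 15, ABCG2 over ABCC2 in 12 and ABCB1 over ABCB5 in 10. With the length of all annotated exons in place of the longest transcript, ABCC10 came before ABCC5. ABCB1 and ABCG2, the carriers best known for BRAF inhibitors, were among the low members in this order.

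**Figure D1:**
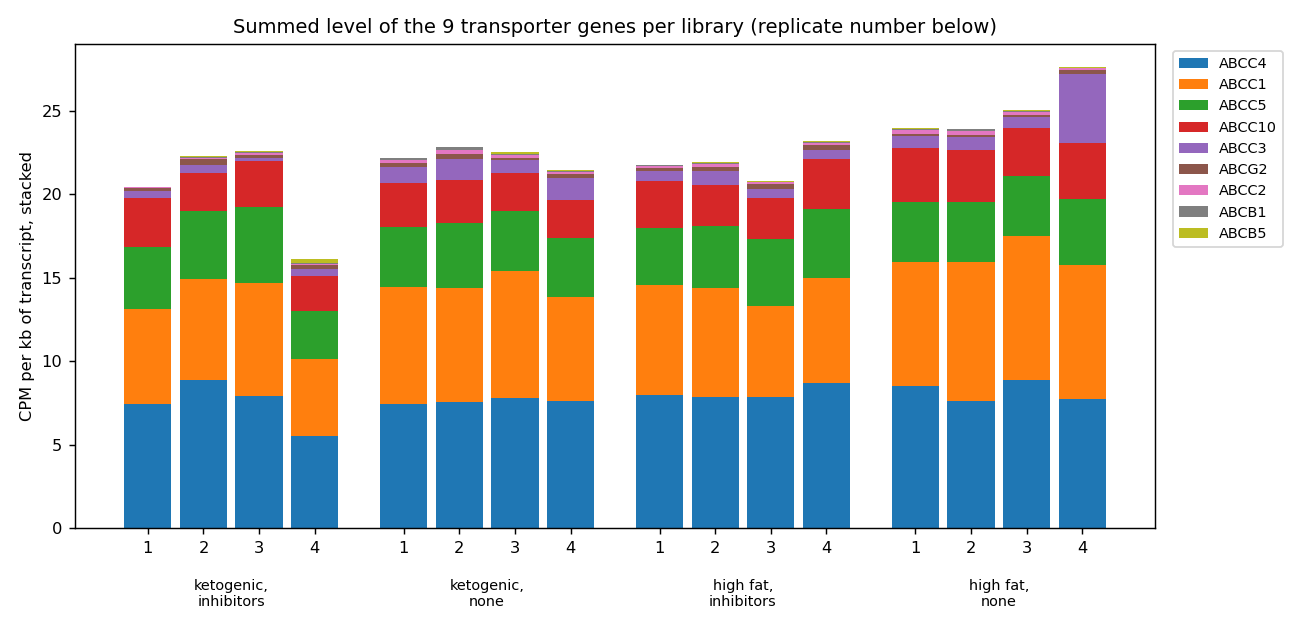
Level per kb of transcript (CPM per kb, stacked) of the 9 transporter genes in each of the 16 libraries, with the replicate number under each bar. ABCC4, ABCC1, ABCC5 and ABCC10 fill most of every bar, and the ABCC3 segment is widest in untreated high fat replicate 4.

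On high fat, the inhibitor-treated libraries had less ABCC1 and ABCC3, and these 2 of the 9 members passed the test, against 42.3% of all tested genes. Both were lower, as were 21.7% of all tested genes, and a share of 2 in 9 is below the first of these and close to the second. DESeq2 called ABCC1 and ABCC3 as well, whereas limma voom with quality weights called ABCC1, ABCC2 and ABCG2. The median log2 fold change of the 9 members was -0.23, against -0.03 over all tested genes, and 7 of the 9 had a value below 0. An unadjusted p under 0.05 was found for 4 of 9 members and for 51.1% of all tested genes. On the ketogenic diet 0 of 9 members passed, against 1.74% of all tested genes, although 4 of 9 had an unadjusted p under 0.05 (18.7% of all tested genes). There DESeq2 called ABCC2, and limma voom called ABCC2 and ABCC3. The median of the 9 was -0.03 on the ketogenic diet, against 0.01 over all tested genes, and 5 members were below 0. For the difference of the inhibitor effect between the diets, ketogenic minus high fat, edgeR and DESeq2 called 0 of 9 members, against 9.02% of all tested genes called by edgeR. An unadjusted p under 0.05 was found for 0 of 9 members and for 28.5% of all tested genes. The inhibitor effects are therefore not shown to differ between the diets for any of the 9 with all libraries in the fit.

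**Figure D2:**
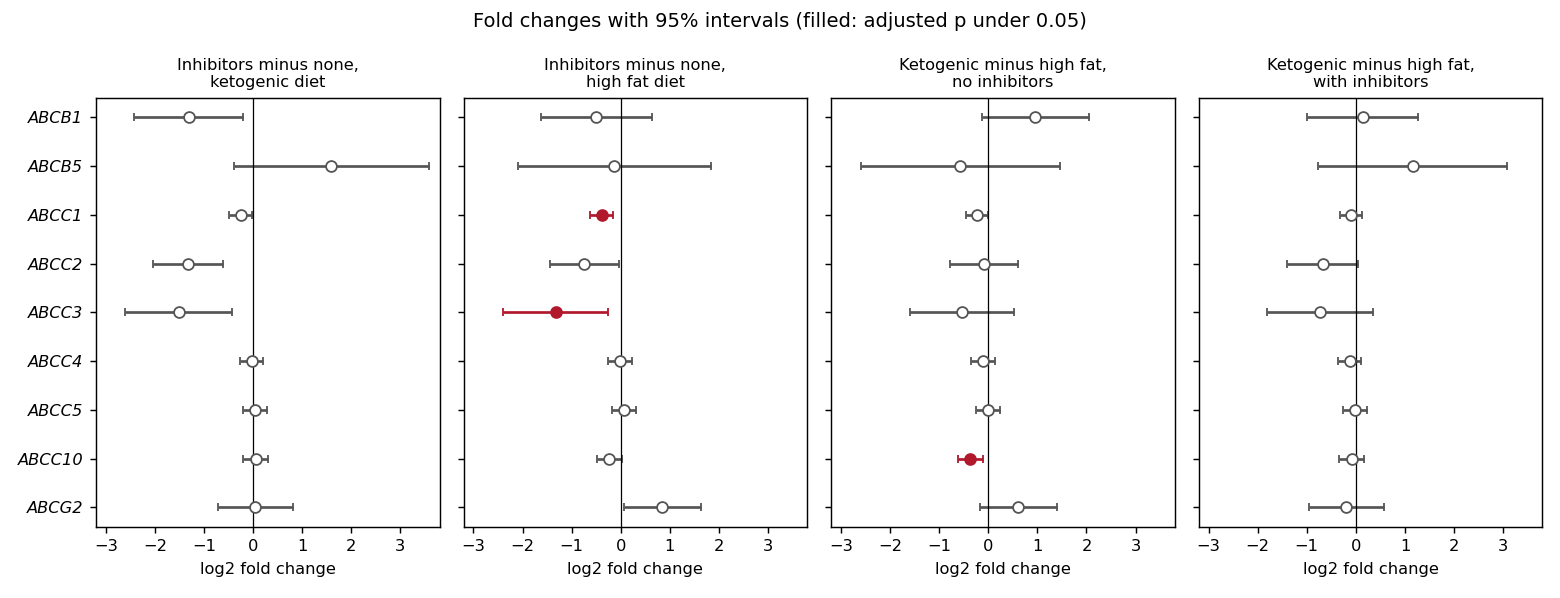
Log2 fold changes of the 9 members with 95% confidence intervals in 4 comparisons, filled where the adjusted p was under 0.05. The filled points are ABCC1 and ABCC3 for inhibitors over none on the high fat diet and ABCC10 for the ketogenic against the high fat diet without inhibitors, all below 0.

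ABCC1 exports glutathione conjugates and leukotriene C4, and lies at chr16:15949577-16143074 on the plus strand (GRCh38, GENCODE 29). On the high fat diet it had 43.3, 42.9, 35.9 and 41.3 CPM with inhibitors, against 49.0, 54.9, 57.0 and 52.9 CPM without. All 4 treated libraries were below all 4 untreated ones, a separation seen for 44.7% of all tested genes. ABCC1 fell by 0.39 on the log2 scale (SE 0.11, interval -0.62 to -0.16, edgeR adjusted p = 0.00966), a change of -23.5%. It was called in all 8 fits that left out 1 of these libraries, with values of -0.43 to -0.33. In the ketogenic groups it had 37.8, 40.2, 44.5 and 30.4 CPM with inhibitors, against 46.1, 44.96, 50.3 and 41.1 CPM without. These groups overlapped, since treated replicate 3 was above untreated replicate 4, and the log2 fold change of -0.25 (SE 0.11, interval -0.48 to -0.02) did not pass (edgeR adjusted p = 0.224). The difference between the diets in ABCC1's inhibitor effect was 0.13 (SE 0.15, interval -0.19 to 0.46, edgeR adjusted p = 0.599).

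The size of the ABCC1 change on the high fat diet depends on the scaling, and its call was also lost without the libraries rich in ribosomal RNA. With library size alone in place of TMM the log2 fold change was -0.10 (edgeR adjusted p = 0.659), a scaling that moved the median of all genes to 0.25. Without the 3 libraries over 30% ribosomal RNA, which leaves 2 untreated high fat libraries, it was -0.34 (edgeR adjusted p = 0.109). With the share of ribosomal RNA as a term in the model it was -0.39 and passed (edgeR adjusted p = 0.0448). A ratio within a library does not depend on the scaling. Over ABCC4, ABCC1 stood at 0.927, 0.931, 0.779 and 0.811 in the high fat libraries with inhibitors, against 0.981, 1.23, 1.10 and 1.17 in those without. In the ketogenic libraries the ratio was 0.869, 0.776, 0.958 and 0.944 with inhibitors, against 1.058, 1.02, 1.10 and 0.924 without. The ratio was below all untreated libraries of its diet in each treated high fat library and in 2 of the 4 treated ketogenic ones; it was chosen after the values were seen and shows unequal change of the 2 genes only.

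ABCC3 exports glucuronides and bile salts across the basolateral membrane, and lies at chr17:50634777-50692252 on the plus strand. On the high fat diet it had 3.62, 4.79, 3.08 and 2.99 CPM with inhibitors, against 4.06, 4.76, 3.76 and 23.5 CPM without. The last value, in untreated high fat replicate 4, came from 1343 estimated counts and was far above the other 3, which overlapped with the treated libraries. ABCC3 fell by 1.32 on the log2 scale with that library in the fit (SE 0.50, edgeR adjusted p = 0.0454), and had -0.21 without it (edgeR adjusted p = 0.563). In limma voom, which gives libraries unequal weights, ABCC3 had -0.41 (adjusted p = 0.231). With the share of ribosomal RNA as a term in the model it was -1.53 (edgeR adjusted p = 0.0594), and without the 3 libraries over 30% ribosomal RNA, which leaves replicate 4 as 1 of 2 untreated libraries, -1.95 (edgeR adjusted p = 0.0148). In the same library the endothelial markers summed to 64.4 CPM, against 33.4 to 37.6 CPM in the other 3, and the lung epithelial markers to 56.7 CPM, against 91.7 to 103.9 CPM, mostly from CAV1, a gene of caveolae in many cell types. The part of these markers in the ABCC3 value was not tested.

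ABCC3 on the ketogenic diet had 2.59, 2.81, 1.10 and 2.21 CPM with inhibitors, against 5.49, 7.25, 4.48 and 7.74 CPM without. All treated libraries were below all untreated ones there. The log2 fold change was -1.51 (SE 0.51, interval -2.60 to -0.43), with an edgeR adjusted p of 0.139, while limma voom called it at -1.54 (adjusted p = 0.0187). Without untreated high fat replicate 4 the difference of the inhibitor effects, ketogenic minus high fat, was -1.30 for ABCC3 (edgeR adjusted p = 0.0422), against -0.19 with it (edgeR adjusted p = 0.884). The diet comparison without inhibitors changed direction with the same library, with a log2 fold change of -0.53 (SE 0.49) over all libraries and 0.57 without it. With inhibitors, all 4 ketogenic libraries were below all 4 high fat ones, as 1 of 9 members and 7.14% of all tested genes were separated, but the log2 fold change of -0.73 (SE 0.51) had an edgeR adjusted p of 0.579.

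**Figure D3:**
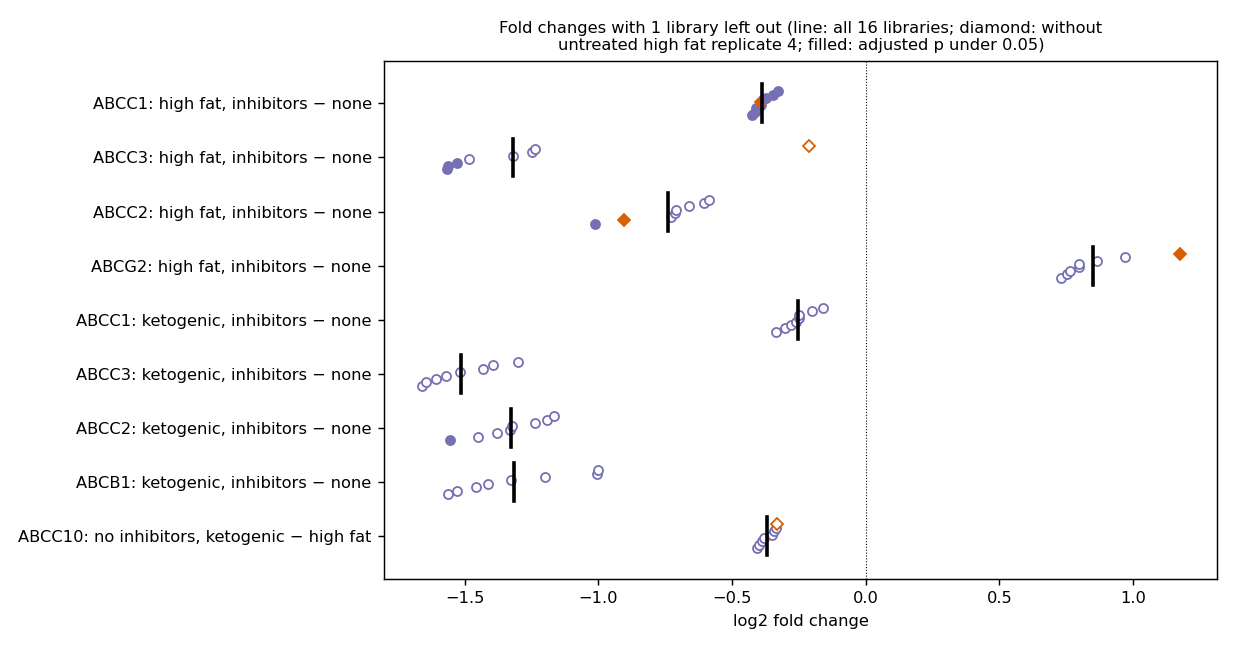
Log2 fold changes with 1 library left out at a time, for 9 combinations of a member and a comparison; black lines mark the fit of all 16 libraries, diamonds the fit without untreated high fat replicate 4, and filled points an adjusted p under 0.05. ABCC1 on the high fat diet stays filled and close to its line, while the ABCC3 diamond lies at -0.21, far from the line at -1.32.

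ABCC2 is the apical counterpart of ABCC3, known for moving conjugated bilirubin into bile, and lies at chr10:99782640-99852594 on the plus strand. The ketogenic libraries had 0.295, 0.499, 0.659 and 0.365 CPM with inhibitors, against 1.14, 1.44, 1.13 and 0.825 CPM without. The groups did not overlap. ABCC2 and ABCC3 were the 2 of 9 members separated in this way on the ketogenic diet, against 10.3% of all tested genes. The counts were low, at 18 to 30 estimated counts per treated library and 34 to 94 per untreated one. The log2 fold change was -1.33 (SE 0.34, interval -2.05 to -0.61), and its edgeR adjusted p of 0.0561 missed the threshold. DESeq2 called it (adjusted p = 0.0076), as did limma voom at -1.10 (adjusted p = 0.033) and edgeR without treated replicate 3 (log2 fold change -1.55, adjusted p = 0.0408). With the share of ribosomal RNA as a term in the model it was -1.17 (edgeR adjusted p = 0.784).

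ABCC2 on the high fat diet had 0.600, 1.10, 0.511 and 0.683 CPM with inhibitors, against 1.56, 1.23, 1.27 and 0.770 CPM without. The groups overlapped through treated replicate 2 and untreated replicate 4. The log2 fold change was -0.74 (SE 0.33, edgeR adjusted p = 0.0812), and limma voom called it at -0.85 (adjusted p = 0.0062). In edgeR it passed without treated replicate 2, at -1.012 (edgeR adjusted p = 0.0323), and without untreated replicate 4, at -0.91 (edgeR adjusted p = 0.0396). ABCC2 thus had values below 0 on both diets, and the difference of -0.59 between them (SE 0.47, interval -1.58 to 0.41) did not pass (edgeR adjusted p = 0.434).

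ABCC4, which exports cyclic nucleotides and prostaglandins, lies at chr13:95019829-95301475 on the minus strand. It had 43.5, 51.8, 46.5 and 32.2 CPM in the ketogenic libraries with inhibitors, against 43.6, 44.2, 45.6 and 44.5 CPM without. In the high fat libraries it had 46.8, 46.1, 46.1 and 51.0 CPM with inhibitors, against 49.995, 44.6, 51.8 and 45.4 CPM without. The groups overlapped on both diets. The log2 fold changes were -0.03 on the ketogenic diet (interval -0.27 to 0.21, edgeR adjusted p = 0.907) and -0.01 on the high fat diet (interval -0.25 to 0.22, edgeR adjusted p = 0.93). With library size alone these became 0.24 and 0.27, where the medians of all genes were 0.28 and 0.25.

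ABCC5, another exporter of cyclic nucleotides, lies at chr3:183919934-184018015 on the minus strand. It averaged 22.5 ± 4.11 CPM with inhibitors and 21.8 ± 1.09 CPM without on the ketogenic diet, and 22.8 ± 1.90 CPM with inhibitors and 21.8 ± 1.08 CPM without on the high fat diet (SD, n = 4 each). All 4 groups overlapped. Its log2 fold changes were 0.04 on the ketogenic diet (interval -0.20 to 0.29) and 0.06 on the high fat diet (interval -0.19 to 0.31), with edgeR adjusted p-values of 0.874 and 0.704. Over ABCC4 and ABCC5 and both diets, the intervals reached from -0.27 to 0.31.

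ABCC10, which carries taxanes and other lipophilic drugs, lies at chr6:43427366-43450430 on the plus strand. It was the 1 of 9 members that passed for the ketogenic against the high fat diet without inhibitors, against 13.5% of all tested genes called and 5.51% called as lower; 1 of 9 members and 30.7% of all tested genes had an unadjusted p under 0.05. The ketogenic libraries had 13.1, 12.8, 11.7 and 11.7 CPM, against 16.5, 15.6, 14.5 and 17.1 CPM in the high fat libraries. The diets did not overlap, as for 25.5% of all tested genes. ABCC10 fell by 0.37 on the log2 scale (SE 0.12, interval -0.62 to -0.12, edgeR adjusted p = 0.0494). All 8 fits that left out 1 of these libraries kept the direction, at -0.41 to -0.33, and lost the call, with edgeR adjusted p-values of 0.0761 to 0.126. With the share of ribosomal RNA as a term in the model the value was -0.40 (edgeR adjusted p = 0.0564). Without the 3 libraries over 30% ribosomal RNA it was -0.48 (edgeR adjusted p = 0.188), and with library size alone -0.22 (edgeR adjusted p = 0.509).

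With inhibitors ABCC10 had 14.98, 11.4, 14.1 and 10.8 CPM on the ketogenic diet, against 14.1, 12.4, 12.6 and 15.3 CPM on the high fat diet. These groups overlapped, with a log2 fold change of -0.09 (SE 0.12). For all 9 members, edgeR, DESeq2 and limma voom called 0 in this comparison, against 0.169% of all tested genes called by edgeR, and 0 of 9 had an unadjusted p under 0.05, against 12.7%. The inhibitor effect on ABCC10 was 0.05 on the ketogenic diet (SE 0.12) and -0.23 on the high fat diet (SE 0.12), with edgeR adjusted p-values of 0.848 and 0.13. ABCC10 shares 79 exon bases with DLK2 on the other strand, and the strand setting of the counting is not given in the sources used here.

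The 300 bases around each annotated ABCC10 start (250 before to 50 after) are shown because ABCC10 passed the diet comparison; they are RefSeq sequence of GRCh38.p14, plus strand, 5′ to 3′. Capitals mark matches to the motifs searched on both strands.
ABCC10 start at chr6:43427613-43427912: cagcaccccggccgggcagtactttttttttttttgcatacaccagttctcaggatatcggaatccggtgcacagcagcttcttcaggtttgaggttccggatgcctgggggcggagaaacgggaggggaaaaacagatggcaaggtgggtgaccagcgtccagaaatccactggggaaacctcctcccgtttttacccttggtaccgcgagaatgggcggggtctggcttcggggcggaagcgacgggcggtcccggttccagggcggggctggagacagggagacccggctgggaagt
ABCC10 start at chr6:43427291-43427590: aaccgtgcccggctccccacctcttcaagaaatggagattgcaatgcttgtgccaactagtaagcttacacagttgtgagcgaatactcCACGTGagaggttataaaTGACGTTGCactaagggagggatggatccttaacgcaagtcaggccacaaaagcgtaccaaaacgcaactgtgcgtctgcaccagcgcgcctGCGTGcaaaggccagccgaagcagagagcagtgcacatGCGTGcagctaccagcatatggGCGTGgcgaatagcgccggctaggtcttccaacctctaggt
The upstream window holds CACGTG, the E-box bound by MYC-type factors, TGACGTTGC, which fits the antioxidant response element TGACNNNGC, and 3 copies of GCGTG, the core of the aryl hydrocarbon receptor element. The other window holds none of the 5 motifs searched. Over 34943 RefSeq promoter windows of the same length, CACGTG was in 7.23%, TGACNNNGC in 13.3% and GCGTG in 36.5%. The AP-1 letters TGANTCA were in 7.72% and the CCAAT box in 34.6%. RefSeq windows were matched for 6 of the 9 members (ABCB1, ABCC2, ABCC4, ABCC5, ABCC10 and ABCG2), in 12 windows. Of these 12 windows, several of which belong to 1 gene and may overlap, 7 held GCGTG, 3 TGACNNNGC, 3 CACGTG, 1 TGANTCA and 1 CCAAT. A match is a string of letters and not a measured binding site.

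ABCG2, at chr4:88090264-88231322 on the minus strand, had 0.855, 1.12, 1.28 and 1.35 CPM in the high fat libraries with inhibitors, against 0.569, 0.498, 0.455 and 1.015 CPM without. The groups overlapped through untreated replicate 4 alone. The log2 fold change was 0.85 (SE 0.37, interval 0.08 to 1.63) with an edgeR adjusted p of 0.0716, and 1.17 without that library (edgeR adjusted p = 0.0214). ABCG2 was also called by limma voom at 1.21 (adjusted p = 0.0042) and by edgeR with library size alone at 1.08 (adjusted p = 0.0396), and had 0.52 without the 3 libraries over 30% ribosomal RNA (edgeR adjusted p = 0.421). ABCG2 had, on the ketogenic diet, 0.622, 1.53, 0.725 and 1.13 CPM with inhibitors, against 1.08, 1.33, 0.506 and 0.970 CPM without. These groups overlapped, and the log2 fold change was 0.04 (SE 0.36, interval -0.72 to 0.80). ABCG2 was the member with the highest value on the high fat diet, where 7 of 9 lay below 0.

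ABCB1, at chr7:87503633-87713323 on the minus strand, was near the limit of detection, with 4.13 to 56.1 estimated counts per library. Among ketogenic libraries it had 0.0655, 0.224, 0.329 and 0.260 CPM with inhibitors, against 0.665, 0.857, 0.370 and 0.267 CPM without. The groups overlapped, and the log2 fold change of -1.31 (SE 0.52, interval -2.42 to -0.21) had an edgeR adjusted p of 0.195. On the high fat diet the values ran between 0.146 and 0.255 CPM with inhibitors and between 0.174 and 0.520 CPM without, with a log2 fold change of -0.50 (SE 0.54, edgeR adjusted p = 0.477). Without inhibitors, ketogenic over high fat diet gave 0.95 (SE 0.52, edgeR adjusted p = 0.222).

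ABCB1 was the 1 member whose estimated counts were not whole numbers, and this held in all 16 libraries. Its neighbour on the chromosome, ABCB4, which moves phosphatidylcholine into bile, lies at chr7:87401697-87480435 on the same strand and shares long identical stretches with it. The longest, 122 bases of coding sequence, is shown because reads that fall within it cannot be assigned to 1 of the genes by sequence. It is in capitals, with 24 bases on either side, from the GENCODE 29 transcripts on GRCh38, 5′ to 3′ on the coding strand, at coding bases 3601 to 3770 of ABCB1 and 3619 to 3788 of ABCB4.
ABCB1: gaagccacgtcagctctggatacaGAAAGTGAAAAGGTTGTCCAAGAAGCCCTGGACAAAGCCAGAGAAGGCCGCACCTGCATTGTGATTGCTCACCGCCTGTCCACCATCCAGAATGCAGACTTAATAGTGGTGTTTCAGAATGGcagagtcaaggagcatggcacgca
ABCB4: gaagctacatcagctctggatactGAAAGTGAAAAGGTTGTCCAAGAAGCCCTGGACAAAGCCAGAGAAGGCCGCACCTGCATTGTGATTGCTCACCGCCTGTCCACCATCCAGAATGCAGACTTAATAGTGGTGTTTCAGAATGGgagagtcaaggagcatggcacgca
The next longest run shared by any other pair of the genes compared was 23 bases, between ABCC1 and ABCC3. ABCB4 was far more abundant than ABCB1, so ABCB1's values are uncertain. In the high fat libraries ABCB4 had 6.55, 4.94, 2.30 and 2.78 CPM with inhibitors, against 35.6, 26.9, 36.8 and 17.2 CPM without. The groups did not overlap, and ABCB4 fell by 2.82 on the log2 scale (SE 0.61, edgeR adjusted p = 0.00258). In the ketogenic libraries it had 23.5, 7.13, 4.11 and 2.59 CPM with inhibitors, against 7.81, 5.02, 9.31 and 15.3 CPM without, which overlapped (log2 fold change 0.00, SE 0.58). The difference between the diets was 2.82 (SE 0.83, edgeR adjusted p = 0.0484), and it passed in 5 of the 16 fits that left out 1 library.

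ABCB5, at chr7:20615207-20777038 on the plus strand, had 0 to 77 estimated counts per library. The ketogenic groups had 0.0491, 0.344, 0.264 and 1.34 CPM with inhibitors, against 0.0309, 0.0918, 0.468 and 0.0728 CPM without. The groups overlapped, and 1 treated library, replicate 4, was far above the rest. The log2 fold change was 1.60 (SE 0.94, interval -0.39 to 3.58, edgeR adjusted p = 0.383). It was 0.40 without that library and 2.90 without untreated replicate 3. On the high fat diet the values were 0 to 0.355 CPM with inhibitors and 0.191 to 0.348 CPM without, with a log2 fold change of -0.13 (SE 0.93). The interval on the high fat diet, -2.09 to 1.84, spans several-fold changes in both directions.

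**Figure D4:**
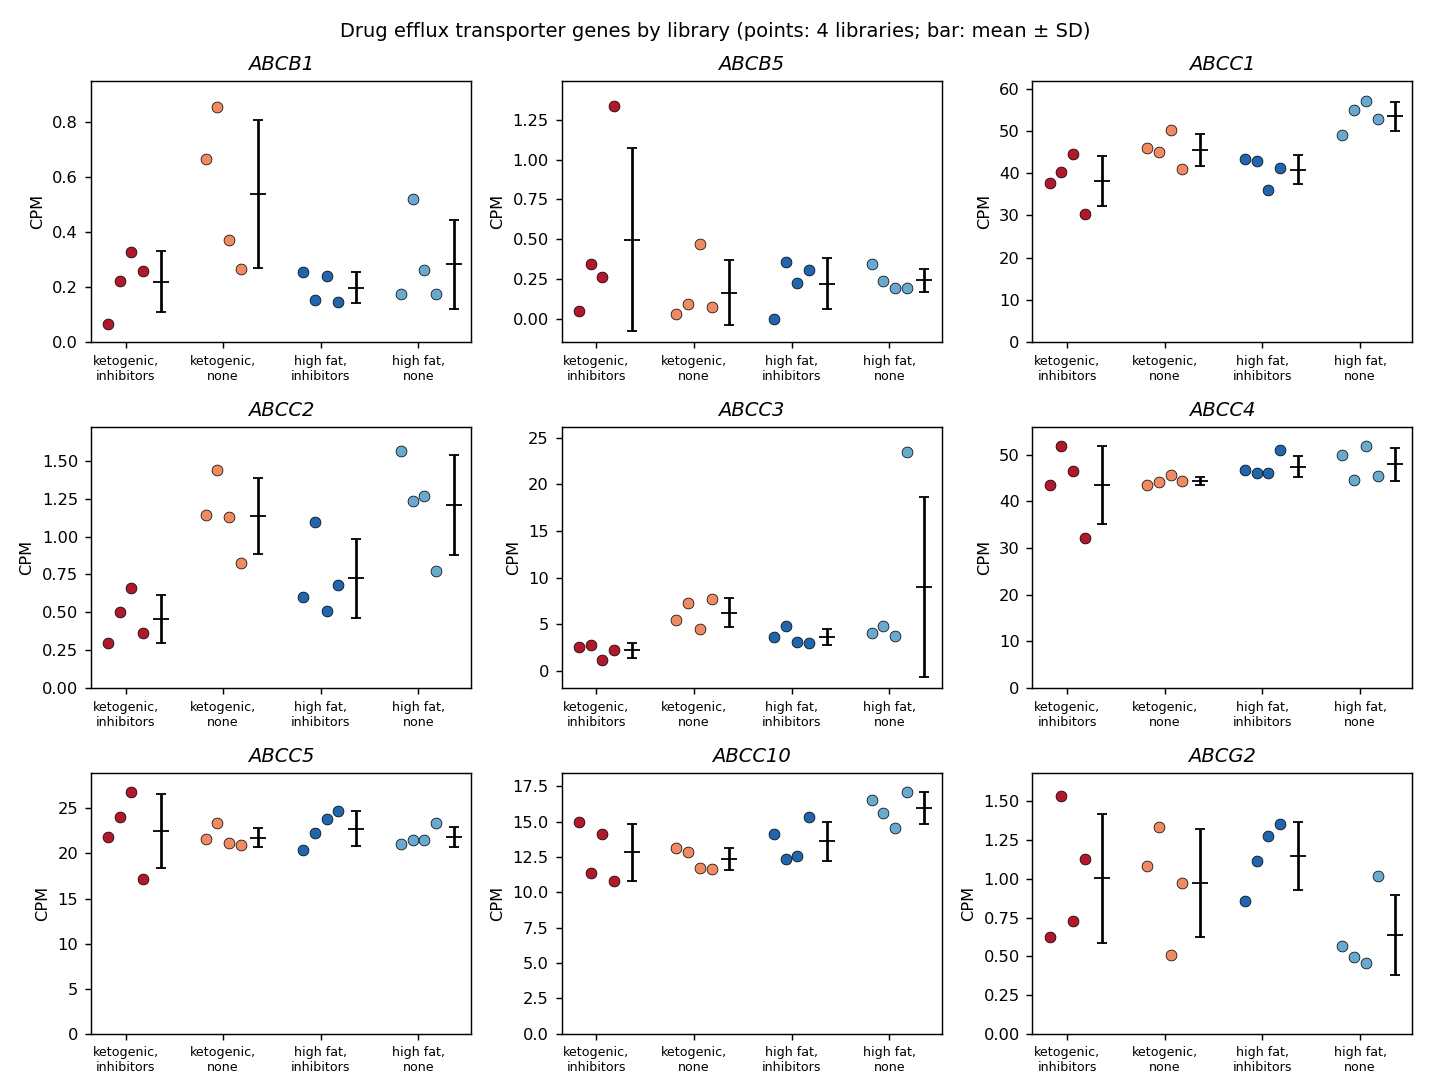
CPM of each of the 9 members in the 4 libraries of each group (points, replicates 1 to 4 from left to right), with the mean ± SD beside them. ABCC1 is lower in all treated than in all untreated high fat libraries, ABCC2 and ABCC3 are lower in all treated than in all untreated ketogenic libraries, and the ABCC3 mean of untreated high fat libraries rests on the value of 23.5 CPM in replicate 4.

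Some genes listed as markers of other cell types passed the test for inhibitors on the high fat diet, where 42.3% of all tested genes passed. The endothelial markers, 7 of 12 tested, of which 2 rose and 0 fell in edgeR, summed to 91.3 to 107.8 CPM with inhibitors, against 33.4 to 64.4 CPM without. KDR, a VEGF receptor, averaged 75.1 CPM with inhibitors and 21.8 CPM without, and FLT1, another, 19.1 CPM with inhibitors and 18.5 CPM without, while CDH5, the endothelial cadherin, was at 0 in 13 of the 16 libraries. Fibroblast and mural markers had 11 tested, of which 1 rose and 4 fell, and summed to 56.5 to 91.5 CPM with inhibitors, against 144.3 to 161.1 CPM without. Most of that sum was ACTA2, smooth muscle actin, at a mean of 16.3 CPM with inhibitors and 59.1 CPM without, and FBLN1, a matrix protein, at 21.9 CPM with inhibitors and 49.8 CPM without. Less abundant matrix genes of the list went the other way. COL3A1 averaged 3.91 CPM with inhibitors and 0.934 CPM without, and DCN 3.45 CPM with inhibitors and 2.27 CPM without. The means of COL1A2, LUM, PDGFRA and DES were also higher with inhibitors, while those of COL1A1, PDGFRB, RGS5 and MYH11 were lower. The erythroid and plasma list had 4 of 12 genes tested and all 4 rose, at sums of 35.2 to 71.0 CPM with inhibitors, against 6.63 to 8.45 CPM without. The difference lies mostly in TTR, a plasma carrier protein, at a mean of 42.8 CPM with inhibitors and 1.31 CPM without, while the globin HBB was near 0, at 0.077 CPM with inhibitors and 0.089 CPM without. On the ketogenic diet the same list summed to 23.2 to 84.3 CPM with inhibitors, against 12.5 to 17.2 CPM without. There 1 of its 4 tested genes rose, against 1.74% of all tested genes called. Leukocyte markers, led by CORO1A, summed to 7.20 to 9.12 CPM with inhibitors on the high fat diet, against 1.70 to 2.44 CPM without, and 2 of 4 tested rose. In the same comparison 0 of 14 melanoma and melanocyte markers rose and 2 fell, 1 of 3 tested lung epithelial markers fell, and of 4 tested macrophage and neutrophil markers 1 rose and 1 fell. The tumour line is human and the host a mouse, and the counts are of human gene symbols. Whether reads from host cells are part of these marker values was not tested. The part of these markers in the ABCC1, ABCC2 and ABCC3 values was not tested.

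Over all 16 libraries, the genes whose log2 CPM was most like that of ABCC1 were RPAP1 and MED13L (Pearson's r = 0.95 each). For ABCC4 they were EIF3A and EFCAB14 (r = 0.90 each), and for ABCC5 KIAA1033 and RASA2 (r = 0.89 each). ABCC3 was most like NOTCH3 (r = 0.89) and FEZ2 (r = 0.88), ABCC2 most like TFAP4 and MYO10 (r = 0.88 each) and ABCC10 most like UNKL (r = 0.89) and COL27A1 (r = 0.87). For ABCB1 the genes were IFFO2 (r = 0.87) and LDB1 (r = 0.83), for ABCG2 KALRN (r = 0.83) and VPS33A (r = 0.82), and for ABCB5 GIN1 (r = 0.82) and HNRNPA1L2 (r = 0.76). These are the highest values among up to 13257 genes, over libraries that share their group structure and scaling, and are given as a description.

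Among the other ABC transporters, 27 of the 34 listed genes reported here were tested. In the high fat comparison of inhibitors over none 4 rose and 10 fell, where 42.3% of all tested genes passed. The median over the 27 was 0.06, on the other side of 0 from the balance of calls. ABCB4 fell most, by 2.82. ABCA10 fell by 1.38 (SE 0.46, edgeR adjusted p = 0.0269), but had -0.32 without untreated high fat replicate 4 (edgeR adjusted p = 0.161). The mitochondrial transporter ABCB8 rose by 0.66 (SE 0.11), and the lysosomal peptide transporter ABCB9 rose by 0.66 (SE 0.21). Fits that left out 1 library called 8 to 12 of these genes, and the fit without the 3 libraries over 30% ribosomal RNA called 6.

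Of the 27, 1 passed for inhibitors over none on the ketogenic diet, where 1.74% of all tested genes passed. ABCA4, the retinal flippase, fell by 2.67 (SE 0.56, edgeR adjusted p = 0.0257), with a mean of 0.183 CPM with inhibitors and 1.17 CPM without. It passed in 4 of the 8 fits that left out 1 of these libraries. Without inhibitors 4 rose and 1 fell on the ketogenic against the high fat diet (13.5% of all tested genes passed), among them ABCA4 by 2.05 (SE 0.54) and ABCB8 by 0.56 (SE 0.11), while ABCA10 fell by 1.62 (SE 0.47) and had -0.56 without untreated high fat replicate 4 (edgeR adjusted p = 0.0514). With inhibitors edgeR called 0 of 27 (0.169% of all tested genes passed). The difference of the inhibitor effects passed for 3 of the 27 genes, against 9.02% of all tested genes. The values were 2.82 for ABCB4, -0.70 for ABCB8 and -2.94 for ABCA4. Of the 16 fits that left out 1 library, ABCB8 passed in all 16 and ABCA4 in 8.

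**Figure D5:**
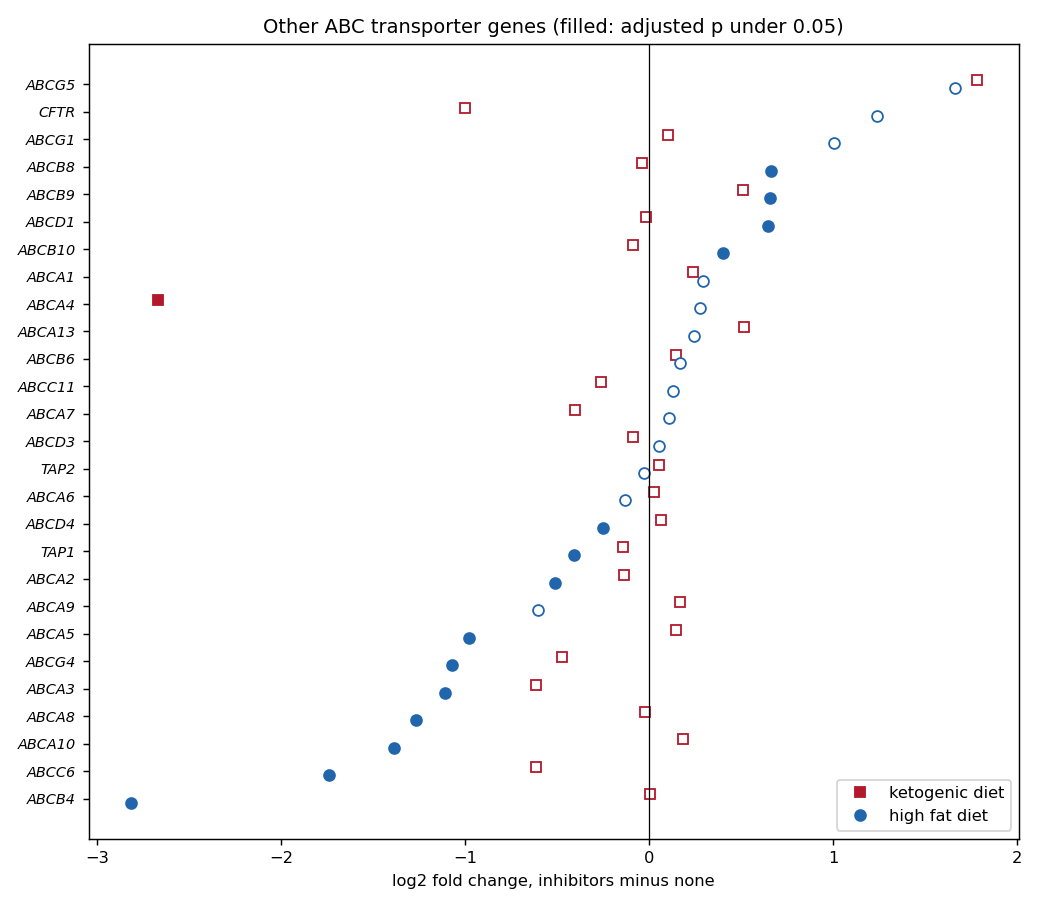
Log2 fold changes of 27 other ABC transporter genes for inhibitors over none on the ketogenic diet (squares) and the high fat diet (circles), filled where the adjusted p was under 0.05. The 14 filled circles spread from ABCB4 at -2.82 to ABCB8 at 0.66, and the single filled square is ABCA4 at -2.67.

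The ABC proteins without membrane domains (ABCE1 and the ABCF genes) act in translation. With inhibitors on the high fat diet 3 of 4 rose, where 42.3% of all tested genes passed. Among them ABCF1 rose by 0.38 (SE 0.09) and ABCF2 by 0.30 (SE 0.11). Between 1 and 3 of them were called when 1 library was left out. In edgeR 0 of 4 passed in the other comparisons.

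The ABCC members export glutathione conjugates, and of the genes for glutathione supply and conjugation 22 of 26 were tested. Of these, 8 rose and 2 fell with inhibitors under high fat feeding, where 42.3% of all tested genes passed. GCLM, a subunit of the enzyme that limits glutathione synthesis, averaged 30.4 CPM with inhibitors and 12.05 CPM without, and rose by 1.33 (SE 0.22, edgeR adjusted p = 0.00024). GSTO2 rose by 1.28 (SE 0.30), while the transferases GSTM2 and GSTT2 fell by 0.46 (SE 0.17) and 1.26 (SE 0.48). Under ketogenic feeding 1 passed, against 1.74% of all tested genes: MGST2, a membrane glutathione transferase, which rose by 0.78 (SE 0.18). Without inhibitors 3 rose and 1 fell on the ketogenic against the high fat diet, where 13.5% of all tested genes passed. Glutathione synthetase, GSS, rose by 0.73 (SE 0.10), GSTM1 rose by 0.61 (SE 0.16) and GSTA4 fell by 0.67 (SE 0.21). The inhibitor effect on GSS differed between the diets by -0.59 (SE 0.15, edgeR adjusted p = 0.0248). GSTM genes are close copies of each other, and their counts are uncertain. Fits without 1 library called 6 to 10 of the list for inhibitors over none on the high fat diet, and 5 were called without the 3 libraries over 30% ribosomal RNA.

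The list of drug uptake carriers, which also holds the exporter SLC47A1, had 15 of 29 genes tested. With inhibitors on the high fat diet 2 rose and 6 fell, where 42.3% of all tested genes passed. The median was -0.43, against -0.03 over all tested genes. SLC22A4, a carnitine and ergothioneine carrier, rose by 1.85 (SE 0.40), and SLCO4A1, an organic anion carrier, rose by 0.70 (SE 0.15). The carnitine carrier SLC22A5 fell by 1.02 (SE 0.18), and the nucleoside carrier SLC29A2 fell by 1.21 (SE 0.22). On the ketogenic diet edgeR called 0 of 15 for the inhibitors. With inhibitors, SLCO4A1 fell by 0.83 on the ketogenic against the high fat diet (SE 0.15, edgeR adjusted p = 0.0374), with means of 19.9 CPM (ketogenic) and 35.3 CPM (high fat). Without inhibitors SLC22A5 fell by 0.58 (SE 0.18). The inhibitor effect differed between the diets for SLCO4A1 by -0.79 (SE 0.22), for SLC22A5 by 0.82 (SE 0.25) and for SLC47A1, which exports organic cations, by 0.67 (SE 0.20).

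Of the genes known to regulate efflux transporters, 26 of 27 were tested. Under high fat feeding 7 rose and 4 fell with inhibitors, where 42.3% of all tested genes passed. KEAP1, which holds the NRF2 factor back, rose by 0.72 (SE 0.10), and HIF1A, the hypoxia factor, rose by 0.69 (SE 0.20). The transcription factors ZEB1 and SNAI2, known from epithelial-mesenchymal transition, fell by 1.16 (SE 0.15) and 1.18 (SE 0.25). For ketogenic libraries 1 passed, against 1.74% of all tested genes: FOXO1, which rose by 0.69 (SE 0.16). Without inhibitors RXRA and YBX1 rose on the ketogenic against the high fat diet, by 0.34 (SE 0.11) and 0.32 (SE 0.10). The inhibitor effect differed between the diets for KEAP1 by -0.53 (SE 0.15) and for ZEB1 by 0.83 (SE 0.21).

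Of the partners that anchor transporters at the membrane or move them to it, 13 of 15 were tested. With inhibitors on the high fat diet 3 rose and 2 fell. Moesin, MSN, which ties membrane proteins to actin, rose by 0.63 (SE 0.14), and the scaffold SLC9A3R1 rose by 0.45 (SE 0.12). The related scaffold SLC9A3R2 fell by 0.59 (SE 0.11), and the endosomal RAB4A fell by 0.40 (SE 0.14). On the ketogenic diet edgeR called 0 of 13 for the inhibitors. Without inhibitors 4 rose on the ketogenic against the high fat diet, among them MSN by 0.51 (SE 0.14) and SLC9A3R1 by 0.44 (SE 0.12). The inhibitor effect on MSN differed between the diets by -0.76 (SE 0.20). In each of these lists the calls stand against 42.3% of all tested genes for inhibitors on the high fat diet, 1.74% for inhibitors under ketogenic feeding, 13.5% between the untreated diet groups and 9.02% for the difference of the inhibitor effects.

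Several of these list calls depended on single libraries. Between the diets without inhibitors, fits that left out 1 library called 1 to 5 of the other ABC transporters, 1 to 4 of the glutathione genes, 0 to 2 of the uptake carriers, 0 to 3 of the regulators and 0 to 3 of the anchoring partners, and 0 of each list passed without the 3 libraries over 30% ribosomal RNA. Of the genes named with inhibitors over none on the high fat diet, RAB4A passed in 5 of the 8 fits that left out 1 of the libraries compared, ABCA10, ABCB9 and GSTM2 in 4, ABCF2 in 3 and GSTT2 in 2, and the other named genes in all 8. On the ketogenic diet MGST2 passed in 4 of 8 and FOXO1 in 1 of 8. Between the diets without inhibitors ABCB8 and GSS passed in all 8, GSTM1 and SLC9A3R1 in 6, ABCA4 and ABCA10 in 4, MSN in 3, GSTA4 in 2, and SLC22A5, RXRA and YBX1 in 1. With inhibitors SLCO4A1 passed in 2 of 8. For the difference of the inhibitor effects GSS passed in 11 of 16 such fits, ZEB1 and MSN in 9, SLCO4A1 in 8, KEAP1 in 5, SLC47A1 in 3 and SLC22A5 in 2.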

How the data were processed

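RNA-seq was measured in 16 libraries, 4 in each of 4 groups taken from the labels. The deposited table holds the authors' RSEM expected counts, that is estimated counts, for 26475 gene symbols and is not scaled for depth; 13.0% of the values were not whole, and all were rounded here before testing. Bowtie2 2.1.0, RSEM 1.2.15 and the build hg38 are listed per the submitters' processing notes, which give no roles. How strands were counted and whether mouse reads were taken out is not given in the sources used here. Each library summed to between 37.1 and 77.3 M (mega) estimated counts.

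Genes were filtered with filterByExpr in edgeR 4.0.16 (R 4.3.3), which left 16012, and all 16 libraries entered 1 model of group means with TMM scaling and robust quasi-likelihood dispersions. Tests were two-sided, in 5 contrasts, with Benjamini-Hochberg adjustment over all tested genes and a threshold of 0.05. Alternatives were DESeq2 1.42.0, limma 3.58.1 (voom with quality weights), other scalings and filters, a replicate block, single libraries left out, and 2 settings for ribosomal RNA added after seeing the data. The procedure was tested on simulated data with 200 changed genes. 1 gene of the list of other ABC transporters is not reported here. The members and gene lists were chosen with earlier results of these data known. Named list genes are the 2 highest and 2 lowest among those past the test in each list and comparison that had 1 CPM or more in the higher group. The most alike genes were taken among genes with at least 1 CPM by Pearson's r of log2 CPM (prior count 2).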

Additional observations from a re-analysis of the deposited data

Results flagged for a closer look

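In 3 of the 40 groups of 4 libraries examined (9 members and ABCB4), 1 library was far from the other 3 by Dixon's criterion, which chance alone meets in about 1 of 20 groups. ABCC3 had 23.5 CPM in untreated high fat replicate 4, ABCB5 had 0.468 CPM in untreated ketogenic replicate 3, and ABCC4 had 51.0 CPM in treated high fat replicate 4.

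For 10 genes that are not members, the test of the difference itself, ketogenic minus high fat, passed. These were 3 of 27 other ABC transporters, 1 of 22 glutathione genes, 3 of 15 uptake carriers, 2 of 26 regulators and 1 of 13 anchoring partners. Of the ABC proteins without membrane domains 0 of 4 passed, and of all tested genes 9.02%. Only ABCB8 passed in all 16 fits that left out 1 library. The log2 differences were -2.94 for ABCA4, 2.82 for ABCB4 and -0.70 for ABCB8. They were -0.59 for GSS, -0.79 for SLCO4A1, 0.82 for SLC22A5 and 0.67 for SLC47A1. They were -0.53 for KEAP1, 0.83 for ZEB1 and -0.76 for MSN.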

How the results depend on the processing

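Against 2 members called with inhibitors on the high fat diet, ABCC1 and ABCC3, 1 was called in 5 settings: ABCG2, higher, with library size alone, ABCC3 without the libraries over 30% ribosomal RNA, and ABCC1 with no low-count filter, only the libraries compared, or the ribosomal RNA share as covariate. Voom called 3 there (ABCC1, ABCC2 and ABCG2). Leaving out 1 library called 1 to 3 there, 0 to 1 on the ketogenic diet and 0 to 1 for the difference of effects. On the ketogenic diet DESeq2 called 1 and limma voom 2, against 0. For the diets without inhibitors voom called 2 (ABCC1 and ABCC10), against 1, and 0 were called with RLE factors, library size alone, ribosomal RNA genes removed, no low-count filter, the ribosomal RNA share as covariate, without the libraries over 30% ribosomal RNA, and in every fit without 1 library. The cause was not tested.

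Library size alone turned the direction of values that had not passed. With inhibitors these became 0.11 for ABCB5, 0.27 for ABCC4 and 0.035 for ABCC10 on the high fat diet, and 0.023 for ABCC1 and 0.24 for ABCC4 on the ketogenic diet. Ketogenic over high fat they became 0.067 for ABCC2, 0.071 for ABCC4 and 0.16 for ABCC5 without inhibitors, and 0.076 for ABCC1, 0.046 for ABCC4, 0.15 for ABCC5 and 0.082 for ABCC10 with them. This scaling moved the median of all genes to 0.25 and 0.28 with inhibitors (high fat, ketogenic) and to 0.15 (no inhibitors) and 0.19 (inhibitors) for the diets.

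Other values that turned direction had not passed either. ABCC5 between the diets without inhibitors became 0.0017 with RLE factors, 0.0073 with ribosomal RNA genes removed, 0.0019 with DESeq2, 0.014 with voom and 0.014 with only the libraries compared, and its difference of effects became 0.0013 with a mean of at least 1 CPM. Voom gave 0.12 for ABCC4 with inhibitors on the ketogenic diet, 0.28 for ABCC3 between the diets without inhibitors, 0.035 for ABCC1, 0.011 for ABCC4 and 0.081 for ABCC5 with them, and differences of effects of 0.12 for ABCC4 and 0.067 for ABCC5. ABCB4 with inhibitors on the ketogenic diet became -0.0016 with RLE factors, -0.010 with DESeq2, -0.46 with voom, -0.40 with the replicate block and -0.21 without the libraries over 30% ribosomal RNA. Without those libraries ABCB1 with inhibitors on the high fat diet became 0.16, and the differences of effects 0.51 for ABCC3 and 0.060 for ABCC5. With the ribosomal RNA share as covariate ABCC5 with inhibitors became -0.016 (high fat) and -0.12 (ketogenic), and ABCC10 -0.093 (ketogenic).

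Leaving out 1 library turned these values, given as ranges. With inhibitors on the high fat diet they were -0.44 to 0.28 for ABCB5 and -0.050 to 0.032 for ABCC4. With inhibitors on the ketogenic diet they were -1.01 to 0.34 for ABCB4, -0.13 to 0.089 for ABCC4, -0.051 to 0.16 for ABCC5, -0.030 to 0.13 for ABCC10 and -0.24 to 0.23 for ABCG2. Between the diets without inhibitors they were -0.25 to 0.063 for ABCC2, -0.79 to 0.57 for ABCC3 and -0.040 to 0.031 for ABCC5. With inhibitors they were -0.11 to 0.44 for ABCB1, -0.036 to 1.54 for ABCB5 and -0.12 to 0.091 for ABCC5. For the difference of effects they were -1.30 to 0.053 for ABCC3, -0.11 to 0.10 for ABCC4 and -0.11 to 0.095 for ABCC5.

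Same-numbered libraries showed little shared deviation (r of -0.15 to 0.21 over genes, own number best in 4 of 16 cases). The labels do not say what a replicate number shares, and low correlations cannot exclude a pairing. A replicate block called 2 members with inhibitors on the high fat diet (ABCC1 and ABCG2) and 0 in each other comparison. The intervals of ABCB1 and ABCB5, which had low counts, span several-fold changes.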
